A study of Mus musculus with 20 samples.

Results

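The cytochrome P450 genes were taken as every gene whose symbol is Cyp followed by a family number, a subfamily letter and a gene number, and Cyp51; 90 of the 19505 genes measured met this rule. Total RNA of adipocytes was measured on 20 expression arrays in 4 groups of 5. The groups were Olfm2 knockout (KO) g, wild-type (WT) g, KO sc and WT sc, where g and sc are the labels of the fat depots and are not spelled out further. Per the labels, the cells came from mouse adipose tissue and were differentiated to adipocytes in vitro. The design text of the series names PKP2 with the sc arrays where every label gives Olfm2, and the labels were followed. Olfm2 encodes the secreted glycoprotein olfactomedin 2. The labels leave out the age, sex and strain of the mice and the kind of knockout allele. They also do not say that the 5 samples of a group came from separate mice or cultures, so the p-values may measure a technical spread only. The values are log2 signals, and no order of transcript levels between genes was drawn from them, since each probe was set against itself on other arrays and against the negative controls.

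Cytochrome P450 enzymes are heme proteins that insert an oxygen atom from O2 into fats, sterols, hormones, drugs and other foreign compounds, using electrons passed on by P450 reductase, cytochrome b5 or, in mitochondria, ferredoxin. Hepatocytes carry most of the drug-metabolising members of families 1 to 4, as well as the enzymes that turn cholesterol into bile acids. Cyp2e1, which oxidises ethanol, acetone and fatty acids, is best known from hepatocytes around the central vein and is also expressed in fat cells. A few members, such as Cyp51 of cholesterol synthesis and Cyp1b1 of estrogen and xenobiotic metabolism, are mainly known from cells outside the liver or from nearly all cells.

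The labels were checked first. Olfm2 ranged from 3.36 to 3.72 on KO g arrays, against 4.08 to 4.60 on WT g arrays, and from 2.67 to 3.58 on KO sc arrays, against 4.28 to 5.25 on WT sc arrays. It was lower in KO without overlap in both depots (limma adjusted p = 0.00784 in g and 0.000152 in sc), although the probe lay near or below the median of the negative control probes (4.45 to 4.84). All 15 mature adipocyte markers exceeded the 95th percentile of the negative controls on some array, and their mean was 11.09 to 11.32 on KO g arrays, against 10.51 to 10.92 on WT g arrays, and 11.34 to 11.51 on KO sc arrays, against 11.08 to 11.41 on WT sc arrays. In g the adipocyte mean thus did not overlap between the genotypes, and its part in the g results was not tested. The labels name adipocytes alone, yet hepatocyte markers were high on some arrays: the mean of 18 markers, none of them a P450, was above 7 on 4 KO g arrays (g306 KO, g317 KO, g318 KO, g320 KO), 2 WT g arrays (g286 WT, g308 WT), 2 KO sc arrays (sc300KO, sc318KO) and 0 WT sc arrays. It was between 7.40 and 10.1 on these 8 and between 5.02 and 6.01 on the other 12. Macrophage markers (12 measured) averaged 8.71 to 9.39 on KO g arrays, against 9.68 to 10.2 on WT g arrays, so that their mean did not overlap between the genotypes in g. Lymphocyte markers averaged over 7.5 on sc317KO (8.69), sc320KO (8.44) and sc286WT (8.33), which were also among the 4 arrays with high skeletal muscle markers. In bulk RNA, fewer cells of a type and less RNA per cell cannot be told apart.

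The promoters of 5 members are shown because they stand for the patterns described afterwards: Cyp2e1 for the gene with the largest difference between the genotypes, Cyp2c70, Cyp8b1 and Cyp2d26 for the genes that followed albumin, and Cyp1b1 for a gene that did not. Each window runs from 250 bases before to 50 bases after the RefSeq start (build GRCm38.p6), on the gene's own strand, and lies at chr7:140763569-140763868 (plus strand) for Cyp2e1, chr19:40187237-40187536 (minus) for Cyp2c70, chr9:121916256-121916555 (minus) for Cyp8b1, chr15:82794196-82794495 (minus) for Cyp2d26 and chr17:79715012-79715311 (minus) for Cyp1b1. Capitals mark the matches to 4 motifs searched on both strands: the TATA box TATAAA, CAAAGTCCA, a sequence of the kind bound by the liver factor HNF4A, GTTAAT, part of the site of the liver factor HNF1, and the GC box GGGCGG of Sp1; no match overlaps another.
Cyp2e1: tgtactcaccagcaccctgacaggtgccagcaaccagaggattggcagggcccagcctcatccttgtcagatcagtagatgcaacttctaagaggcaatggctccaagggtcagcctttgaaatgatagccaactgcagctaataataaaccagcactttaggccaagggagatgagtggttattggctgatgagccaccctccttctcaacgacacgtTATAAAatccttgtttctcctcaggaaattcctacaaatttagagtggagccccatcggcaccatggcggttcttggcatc
Cyp2c70: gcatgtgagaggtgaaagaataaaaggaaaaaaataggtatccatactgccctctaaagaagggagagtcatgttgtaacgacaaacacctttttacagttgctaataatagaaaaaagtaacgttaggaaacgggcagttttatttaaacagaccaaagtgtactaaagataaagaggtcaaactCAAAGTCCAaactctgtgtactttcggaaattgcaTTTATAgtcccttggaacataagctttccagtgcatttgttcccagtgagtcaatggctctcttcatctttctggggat
Cyp8b1: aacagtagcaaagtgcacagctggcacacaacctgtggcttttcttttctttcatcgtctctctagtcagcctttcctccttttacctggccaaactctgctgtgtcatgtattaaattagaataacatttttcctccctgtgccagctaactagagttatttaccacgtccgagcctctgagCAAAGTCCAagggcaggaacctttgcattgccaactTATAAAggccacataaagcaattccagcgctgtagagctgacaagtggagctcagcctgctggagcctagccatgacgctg
Cyp2d26: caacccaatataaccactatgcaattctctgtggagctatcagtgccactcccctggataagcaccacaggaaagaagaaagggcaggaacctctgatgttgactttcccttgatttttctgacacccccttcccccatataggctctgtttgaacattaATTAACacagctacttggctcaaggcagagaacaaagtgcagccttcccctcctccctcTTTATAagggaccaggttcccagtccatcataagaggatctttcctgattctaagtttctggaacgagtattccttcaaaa
Cyp1b1: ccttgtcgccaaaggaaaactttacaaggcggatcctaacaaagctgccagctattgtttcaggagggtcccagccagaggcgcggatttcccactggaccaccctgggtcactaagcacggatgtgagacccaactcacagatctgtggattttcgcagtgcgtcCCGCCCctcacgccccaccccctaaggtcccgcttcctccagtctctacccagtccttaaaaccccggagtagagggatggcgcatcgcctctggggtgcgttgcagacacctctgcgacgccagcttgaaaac
The motifs were chosen after the sequences were seen. CAAAGTCCA and GTTAAT were each in 4 of 21 windows of the genes that followed albumin. The windows of Cyp2c70, Cyp8b1 and Cyp2d26, which each hold 1 of them, are thus not typical of those genes in this. The TATA box is in capitals in the first 4 windows, shortly before the start, on the gene's own strand in Cyp2e1 and Cyp8b1 and on the opposite one in Cyp2c70 and Cyp2d26. The Cyp1b1 window carries a GC box. The RefSeq table matched 69 of the 90 members with 77 windows. TATAAA was in 36.4% of these windows, against 13.6% of all 32851 promoters, and CAAAGTCCA in 11.7%, against 0.475%. The windows with CAAAGTCCA belong to Cyp2c40, Cyp2c65, Cyp2c67, Cyp2c68, Cyp2c69, Cyp2c70, Cyp3a11, Cyp3a16 and Cyp8b1, of which the 6 Cyp2c genes are close copies and not independent. GTTAAT was in 11.7% of the P450 windows, against 7.10% of all, and GGGCGG in 23.4%, against 35.7%. A match is a description of these letters and not a bound site.

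The members were parted by their Pearson correlation with Alb, the albumin gene and main hepatocyte marker, over the 20 arrays, which share 4 groups and 2 depots. Of the 90 members 20 had an r of 0.8 or more and are called Alb-tracking here, 25 lay between 0.5 and 0.8, and 45 were under 0.5 and are called Alb-independent. The 6 highest were Cyp2j5 (0.93), an arachidonic acid epoxygenase, Cyp2d26 (0.93), Cyp2c23 (0.90), Cyp2c50 (0.89), the bile acid enzyme sterol 12-alpha-hydroxylase Cyp8b1 (0.89) and Cyp2a12 (0.88). Next to the limits, Cyp2d40 (0.80) lay just inside and Cyp4a32 (0.77) just outside the upper one, while Cyp2b9 (0.52) and Cyp2c40 (0.47) stood on either side of the lower one. Cyp2e1 had an r of 0.70 and fell between.

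By role, the Alb-tracking set held 14 of 45 family 2 members, 2 of 7 of family 3, 1 of 16 of family 4 (Cyp4f14), 1 of 3 of family 1 (Cyp1a2) and 2 of 7 of the sterol and bile acid group (Cyp7a1 and Cyp8b1). It held 0 of 5 steroid hormone synthesis genes and 0 of 6 vitamin D and retinoic acid genes. TATAAA was in 12 of 21 promoter windows of Alb-tracking members, 8 of 16 of those between and 8 of 40 of Alb-independent members. GGGCGG was in 0 of 21, 3 of 16 and 15 of 40 of the same windows. CAAAGTCCA was in 4 of 21, 3 of 16 and 2 of 40 of them, and so was GTTAAT. These shares are descriptions, since the members come in clusters of close copies.

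**Figure D1:**
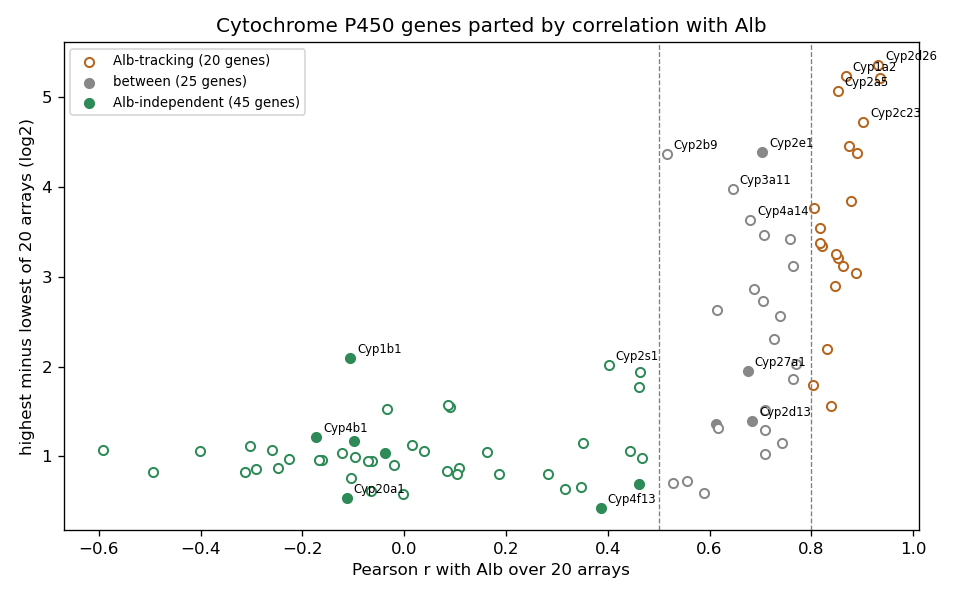
Each of the 90 P450 genes by its Pearson r with Alb over 20 arrays (x) and by the highest minus the lowest log2 signal of its probe over those arrays (y); filled points were above background on at least 10 arrays, open points were not, and dashed lines mark r of 0.5 and 0.8. All 20 Alb-tracking genes are open points, and Cyp2e1 is the filled point with the widest range (4.39).

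Few members were bright. A member counts as above background on an array where it exceeds the 95th percentile of the negative controls (7.02 to 7.48); 11 members did so on at least 10 arrays and 55 on none. The 11 were the Alb-independent Cyp1b1, the eicosanoid enzymes Cyp2j6 and Cyp4f13, the fatty acid hydroxylases Cyp2u1 and Cyp4b1, the lanosterol demethylase Cyp51 and the orphan P450 Cyp20a1, and, of those between, Cyp2e1, Cyp2d13, Cyp2d22 and the mitochondrial sterol 27-hydroxylase Cyp27a1. On all 20 arrays it held for 7 of them, Cyp2e1, Cyp2d13, Cyp27a1, Cyp4f13, Cyp2u1, Cyp20a1 and Cyp4b1. None of the 20 Alb-tracking members was among the 11. Close copies within the Cyp2a, Cyp2c, Cyp2d, Cyp3a and Cyp4a clusters can share probe sequence, so values of single members of these clusters are uncertain.

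Cyp2e1 differed more between KO and WT arrays than any other member in both depots. In g it was 10.61, 10.99, 11.84, 10.51 and 12.01 on g300, g306, g317, g318 and g320 KO, against 8.67, 8.96, 7.84, 9.75 and 7.62 on g286, g287, g307, g308 and g309 WT. In sc it was 11.23, 10.36, 11.29, 10.66 and 10.99 on sc300KO, sc306KO, sc317KO, sc318KO and sc320KO, against 8.76, 9.04, 8.61, 8.20 and 7.70 on sc286WT, sc287WT, sc307WT, sc308WT and sc309WT. Every KO array was above every WT array of its depot, and the highest WT value, on g308 WT, belonged to an array with a high hepatocyte mean. The means were 11.19 ± 0.70 in KO g and 8.57 ± 0.86 in WT g, and 10.91 ± 0.39 in KO sc and 8.46 ± 0.52 in WT sc (SD, n = 5 each).

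Cyp2e1 rose in KO g by 2.62 (SE 0.37, a fold of 6.16; limma adjusted p = 0.000195) and in KO sc by 2.44 (SE 0.37, a fold of 5.44; limma adjusted p = 0.0028). The effect in g minus that in sc was 0.18, with a 95% interval of -0.91 to 1.27 (limma adjusted p = 0.924). The hepatocyte values beside it were as follows. The KO arrays with a low hepatocyte mean had Cyp2e1 levels of 10.61 on g300 KO, and 10.36, 11.29 and 10.99 on sc306KO, sc317KO and sc320KO, all above every WT array, and sc317KO had the highest value of the sc arrays. With the hepatocyte mean as a covariate the difference was 2.17 in g (limma adjusted p = 0.00139) and 2.08 in sc (limma adjusted p = 0.00589). Without the 8 hepatocyte-high arrays it was 2.42 in sc (limma adjusted p = 0.0138), and 2.47 in g, where 1 KO array and 3 WT arrays are left, the lone one being assumed to vary like the other groups (limma adjusted p = 0.0813).

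With the macrophage mean as a covariate, which did not overlap between the genotypes in g, the difference was 0.99 in g (limma adjusted p = 0.698) and 1.81 in sc (limma adjusted p = 0.0405); in g the macrophage mean and the genotype cannot be told apart, and the adipocyte mean, also without overlap there, was not fitted. Leaving out 1 array at a time gave 2.39 to 2.92 in g and 2.25 to 2.59 in sc, all called. Between depots Cyp2e1 did not pass the test, with g minus sc 0.29 in KO (95% interval -0.49 to 1.06; limma adjusted p = 0.752) and 0.11 in WT (-0.67 to 0.88; limma adjusted p = 0.888).

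**Figure D2:**
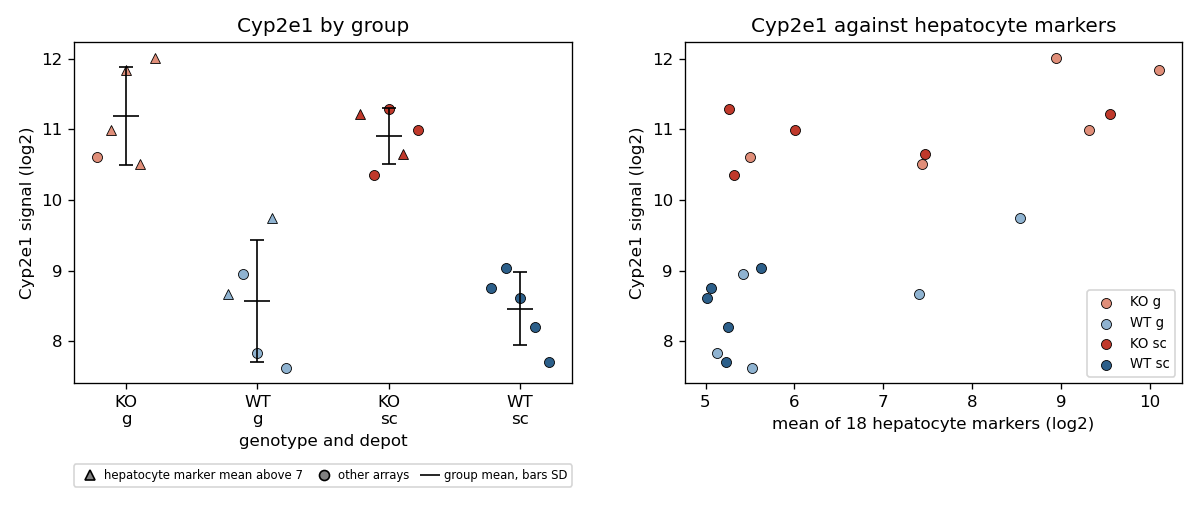
Cyp2e1 log2 signal by genotype and depot (left; each point an array, bar and whiskers the group mean and SD, n = 5, triangles arrays with a hepatocyte marker mean above 7) and against the mean of 18 hepatocyte markers (right). The 10 KO arrays lie between 10.36 and 12.01 and the 10 WT arrays between 7.62 and 9.75, and KO and WT arrays stay apart at the low end of the hepatocyte axis.

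In KO g against WT g, the comparison asked which members change with loss of Olfm2 in that depot. Of 90 members 6 rose and 2 fell, together 8.89%, where limma called 11.3% of all genes, 5.01% as higher and 6.27% as lower. The members' median difference was 0.19, beside 0.02 over all genes. The 6 were Cyp2e1, Cyp2c70, Cyp4f14, Cyp27a1, Cyp2j9 and Cyp2d34, and the 2 were Cyp1b1 and Cyp11a1. The genotypes did not overlap for 6 members higher in KO (Cyp2e1, Cyp27a1, Cyp2j9, Cyp2j6, Cyp2u1 and Cyp2c40) and 1 lower (Cyp1b1), where the shares over all genes were 4.68% higher and 5.73% lower.

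Cyp1b1, which hydroxylates estradiol and activates polycyclic hydrocarbons, fell most. It was 7.35, 7.53, 7.30, 7.83 and 7.35 on g300, g306, g317, g318 and g320 KO, against 8.51, 8.21, 8.66, 8.12 and 8.49 on g286, g287, g307, g308 and g309 WT. All KO g arrays lay below all WT g arrays, by a difference of -0.92 in the means (SE 0.15; limma adjusted p = 0.000729), and the fall was called in each fit that left out 1 array (limma adjusted p up to 0.00335). With the hepatocyte covariate it was -0.80 (limma adjusted p = 0.00722), and with the macrophage covariate -0.15 (limma adjusted p = 0.93). In sc the difference was -0.30 (limma adjusted p = 0.514), and the difference between the depots did not pass (-0.62 for g minus sc, limma adjusted p = 0.248).

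Cyp27a1, which oxidises the side chain of cholesterol, was 8.58, 8.68, 9.37, 8.59 and 9.04 on g300, g306, g317, g318 and g320 KO, against 8.23, 7.95, 8.38, 8.13 and 8.28 on g286, g287, g307, g308 and g309 WT. The genotypes did not overlap, and it rose by 0.66 (SE 0.18; limma adjusted p = 0.0236). All KO arrays but the lowest, g300 KO, were hepatocyte-high. With the hepatocyte covariate the difference was 0.46 (limma adjusted p = 0.164). The call was missed without g287 WT (adjusted p = 0.0569), g317 KO (0.0787) or g320 KO (0.0622). In KO sc against WT sc it was 0.60 higher but not called (limma adjusted p = 0.16).

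Cyp2j9, of the arachidonic acid epoxygenase subfamily, was 7.47, 7.37, 7.38, 7.57 and 7.41 on g300, g306, g317, g318 and g320 KO, against 6.73, 7.22, 6.65, 6.97 and 6.77 on g286, g287, g307, g308 and g309 WT. Its 5 KO values lay close together and above all WT values, a rise of 0.57 (SE 0.16; limma adjusted p = 0.0269), missed without g286 WT (0.066), g307 WT (0.08), g309 WT (0.0653), g318 KO (0.0541) or g320 KO (0.0504). With the hepatocyte covariate it was 0.50 (limma adjusted p = 0.127). Another 3 members of family 2 were also higher without overlap but not called: Cyp2j6 by 0.33 (limma adjusted p = 0.0625), the fatty acid hydroxylase Cyp2u1 by 0.31 (0.0797) and Cyp2c40 by 0.31 (0.122), whose probe lay below the median of the negative controls. Cyp2j6 was called with the dim-probe filter (0.0281), array weights (0.0328), quantile normalization (0.0482), a fit of the g arrays alone (0.0348) and without the lymphocyte-high arrays (0.0109). Cyp2u1 was called with the filter (0.037), in the g arrays alone (0.0472) and without the lymphocyte-high arrays (0.017).

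Cyp2c70, which in mice makes muricholic bile acids, was 4.61, 6.25, 7.32, 4.99 and 6.54 on g300, g306, g317, g318 and g320 KO, against 4.41, 4.09, 3.90, 5.26 and 4.29 on g286, g287, g307, g308 and g309 WT. The KO arrays with the highest values, g317, g320 and g306, were those with the highest hepatocyte means of the group, and KO and WT arrays overlapped. The rise was 1.56 (SE 0.42; limma adjusted p = 0.0201). With the hepatocyte covariate it was 0.73 (limma adjusted p = 0.0489), and without the hepatocyte-high arrays 0.52 (0.543). The call was missed without g307 WT (adjusted p = 0.0617), g317 KO (0.0676) or g320 KO (0.0596).

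The remaining 3 called members were dim as well. Cyp4f14, a leukotriene-hydroxylating enzyme of liver, was 5.09, 7.10, 7.92, 6.14 and 6.19 on g300, g306, g317, g318 and g320 KO, against 5.65, 4.67, 5.19, 5.60 and 5.01 on g286, g287, g307, g308 and g309 WT, with the hepatocyte-low g300 KO among the WT values. Its rise of 1.27 (SE 0.40; limma adjusted p = 0.0429) was missed in 12 of 20 fits that left out 1 array (without sc287WT, sc307WT, sc308WT, sc309WT, sc318KO, g286 WT, g287 WT, g307 WT, g309 WT, g306 KO, g317 KO or g320 KO; adjusted p up to 0.133) and with the title number as a block (0.0502), and the difference was 0.52 with the hepatocyte covariate (0.216) and 0.14 without the hepatocyte-high arrays (0.886). Cyp2d34 rose by 0.56 (SE 0.17; limma adjusted p = 0.0378) but did not exceed the 75th percentile of the negative controls on any array, and was 0.31 higher with the hepatocyte covariate (0.257) and 0.02 higher without the hepatocyte-high arrays (0.991). Cyp11a1, the side-chain cleavage enzyme that starts steroid hormone synthesis, fell by 0.48 (SE 0.14; limma adjusted p = 0.0283), likewise with a probe below that percentile throughout (4.45 to 5.56). Of the 5 measured markers of steroid-producing cells 1 exceeded the 95th percentile on any array, Fdx1, the ferredoxin described further below. Cyp11a1 was missed in 5 fits that left out 1 array (without g286 WT, g300 KO, g307 WT, g309 WT or g320 KO) and Cyp2d34 in 7 (without g286 WT, g287 WT, g307 WT, g309 WT, g306 KO, g317 KO or g320 KO). In a fit of the 10 g arrays alone 4 of the 8 were not called, Cyp2c70 (limma adjusted p = 0.0507), Cyp11a1 (0.0634), Cyp4f14 (0.0831) and Cyp2d34 (0.0868).

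All 20 Alb-tracking members were higher on average in KO g than in WT g, with a median difference of 1.17, and 2 of them were called, Cyp2c70 and Cyp4f14. The largest difference among them was that of Cyp1a2, which demethylates caffeine (1.98, SE 0.79; limma adjusted p = 0.119). In sc all 20 were higher in KO too, with a median of 0.74 and 0 called. The members were chosen by their correlation with Alb on these arrays, and Alb itself was 2.02 higher in KO g (SE 1.01; limma adjusted p = 0.235) and 2.48 higher in KO sc (SE 1.01; adjusted p = 0.359), so their shared direction follows in part from the choice and supports nothing. It also rested on single arrays: without sc300KO the sc median was 0.18, with 19 of 20 above 0, and without g317 KO the g median was 0.74. The hepatocyte mean itself was 8.26 ± 1.82 in KO g, against 6.40 ± 1.49 in WT g, and 6.72 ± 1.81 in KO sc, against 5.24 ± 0.24 in WT sc (SD, n = 5 each). With that mean as a covariate limma called 5 members in g. The share of all genes called in that fit is not given, so the count is no result about the members. Cyp2e1, Cyp1b1 and Cyp2c70 were called in the direction given above. Cyp2d26 (-0.62, limma adjusted p = 0.0181) and the pregnane X receptor target Cyp3a11 (-1.28, limma adjusted p = 0.0429) were called as lower in KO. Without the covariate Cyp2d26 was 1.49 higher in KO g. Cyp2d26 was chosen by its correlation with Alb, which is among the markers of the covariate, so its turn of sign cannot be read as a fall. Cyp3a11 was not called without the covariate and was not above background on any g array. Its KO g values (3.69 to 4.98) lay within the range of its WT g values (3.67 to 5.52). The highest Cyp3a11 value in the fit, 7.41, was on sc300KO, which is not a g array. Its call with the covariate thus cannot be read as a fall either. Without the 8 hepatocyte-high arrays 1 KO g and 3 WT g arrays are left, too few to read a count of calls in g.

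**Figure D3:**
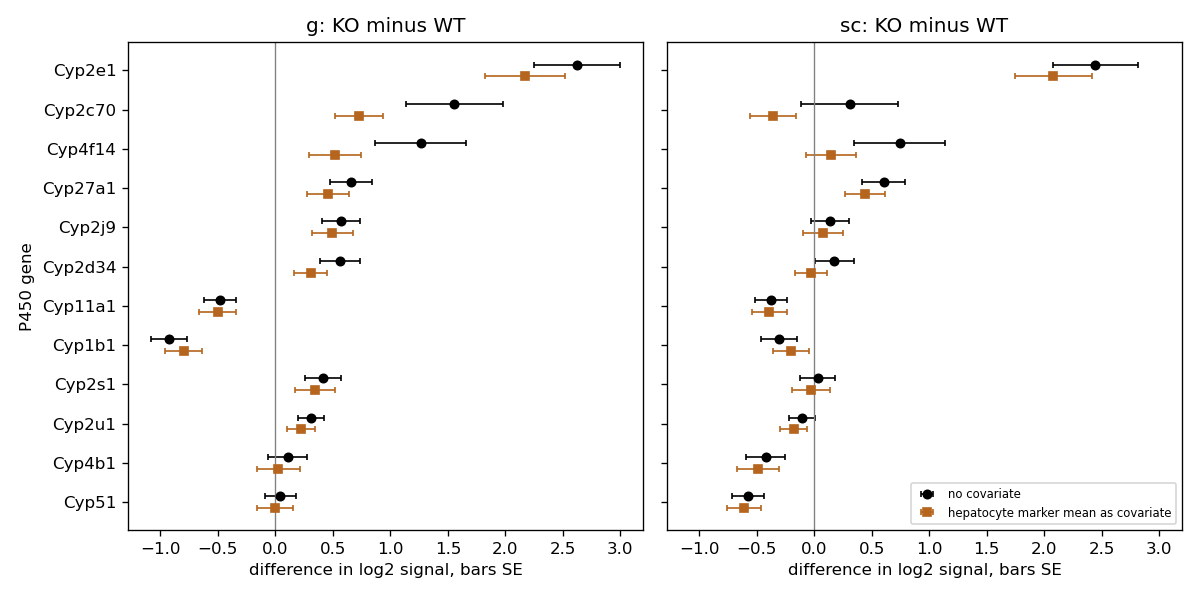
KO minus WT difference in log2 signal in g (left) and sc (right) for the 12 members called in any comparison, with moderated SE, without a covariate (circles) and with the mean of 18 hepatocyte markers as a covariate (squares). Cyp2e1 lies near 2 or above in both depots with either fit, while Cyp2c70 and Cyp4f14 lie nearer to 0 in g with the covariate.

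In KO sc against WT sc limma called 1 of 90 members (1.11%), Cyp2e1, and 0.677% of all genes, 0.297% as higher and 0.379% as lower. The members' median difference was 0.14, beside 0.01 over all genes. The genotypes did not overlap for 4 members higher in KO and 0 lower, where the shares over all genes were 1.41% and 1.53%. Beside Cyp2e1 these were Cyp2f2, a naphthalene-metabolising enzyme of lung and liver (0.85, limma adjusted p = 0.486), Cyp2a4, a testosterone hydroxylase (0.83, adjusted p = 0.538), and Cyp3a59 (0.48, adjusted p = 0.237). Cyp2a4 was 7.45 on sc300KO and 4.77 to 5.20 on the other KO sc arrays, and its difference without sc300KO was 0.32. The Cyp3a59 probe lay below the median of the negative controls on every array (3.04 to 4.19). The highest Cyp2f2 value of the sc arrays was 7.33, on sc317KO, whose hepatocyte mean was low (5.27). That value lay just below the 95th percentile of the negative controls of the array (7.35).

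Cyp51, which removes a methyl group from lanosterol in cholesterol synthesis, was 7.40, 7.96, 7.26, 7.51 and 7.11 on sc300KO, sc306KO, sc317KO, sc318KO and sc320KO, against 7.73, 7.94, 8.23, 8.11 and 8.11 on sc286WT, sc287WT, sc307WT, sc308WT and sc309WT. Of the KO arrays, sc306KO alone lay among the WT values, and the 2 lowest, sc320KO and sc317KO, were those with high lymphocyte markers. The difference of -0.58 (SE 0.14) missed the threshold (limma adjusted p = 0.0593; 0.0288 among the 7279 genes left by a filter on dim probes, and 0.235 without the lymphocyte-high arrays). In g it was 0.04 (limma adjusted p = 0.896), and the difference between the depots did not pass (0.62 for g minus sc, limma adjusted p = 0.196). For the test of that difference between depots limma called 0 of 90 members, and 0.0769% of all genes; 6 members had an unadjusted p under 0.05, a rule that took 13.0% of all genes.

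In g against sc, the depot comparison was made within each genotype. In WT limma called 4 of 90 members (4.44%), where 17.8% of all genes were called, and in KO also 4 (4.44%), against 4.13% of all genes. In WT Cyp1b1 and Cyp2s1 were higher in g, and Cyp2u1 and Cyp4b1 were lower, where 9.3% of all genes were called higher and 8.48% lower. In KO the members higher in g were Cyp1b1, Cyp2s1, Cyp51 and Cyp2c70, and 0 were lower, where 2.87% of all genes were called higher and 1.27% lower. The depots did not overlap in WT for Cyp1b1, Cyp2s1 and the oxysterol hydroxylase Cyp7b1, which were higher in g, and for Cyp2u1 and Cyp4b1, which were lower (8.73% and 7.36% of all genes). In KO this held for Cyp2s1 alone (2.31% of all genes higher and 1.95% lower).

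Cyp2s1, a P450 known mainly from epithelia outside the liver, was 6.51, 6.86, 7.22, 6.69 and 6.88 on g300, g306, g317, g318 and g320 KO, against 5.35, 5.49, 5.53, 5.40 and 5.70 on the KO sc arrays of the same numbers in that order. On WT arrays it was 6.16, 6.70, 6.20, 6.66 and 6.37 on g286, g287, g307, g308 and g309 WT, against 5.73, 5.23, 5.25, 5.91 and 5.21 on the sc arrays of these numbers. The depots did not overlap in either genotype, and Cyp2s1 was higher in g by 1.34 in KO (SE 0.15; limma adjusted p = 3.09e-05) and by 0.95 in WT (SE 0.15; adjusted p = 0.000188). With the macrophage mean as a covariate Cyp2s1 was called in KO (1.73, limma adjusted p = 0.00912) but not in WT. It exceeded the 95th percentile of the negative controls on 1 of 20 arrays.

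Cyp1b1 was 7.47 ± 0.22 in KO g, against 6.81 ± 0.33 in KO sc, and 8.40 ± 0.23 in WT g, against 7.11 ± 0.23 in WT sc (SD, n = 5 each). It was higher in g by 0.66 in KO (limma adjusted p = 0.0161), missed without g318 KO (0.0542), and by 1.28 in WT (adjusted p = 8.94e-06), where the depots did not overlap. The macrophage mean was also higher in g than in sc in both genotypes, with group means of 9.04 in KO g, 8.15 in KO sc, 9.93 in WT g and 8.50 in WT sc, and with it as a covariate the Cyp1b1 depot difference was -0.11 in KO and 0.04 in WT. The part of macrophages in it cannot be told apart from the depot.

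Cyp2u1, a long-chain fatty acid hydroxylase, was 7.77 ± 0.10 in WT g, against 8.42 ± 0.21 in WT sc (SD, n = 5 each), a fall of 0.65 without overlap (SE 0.11; limma adjusted p = 0.000352). With the macrophage covariate Cyp2u1 was not called there. Cyp4b1, a fatty acid and xenobiotic hydroxylase best known from lung, was 8.78 ± 0.15 in WT g, against 9.34 ± 0.22 in WT sc, also without overlap (-0.56, SE 0.17; limma adjusted p = 0.0265). That call was missed without sc287WT (adjusted p = 0.0758), sc309WT (0.065), g307 WT (0.0683) or g309 WT (0.0666), and the sign turned with the macrophage covariate (0.28). In KO, Cyp51 was 7.99 ± 0.20 in g, against 7.45 ± 0.32 in sc (0.54, SE 0.14; limma adjusted p = 0.0287), and was not called without sc300KO (0.058), sc317KO (0.0752), sc320KO (0.0933), g306 KO (0.0902), g317 KO (0.0515) or g318 KO (0.0614). Cyp2c70 was 5.94 ± 1.12 in KO g, against 4.31 ± 0.71 in KO sc (1.63, SE 0.42; limma adjusted p = 0.0315), and was not called without sc306KO (0.0793), sc317KO (0.0751), sc320KO (0.0883), g306 KO (0.0818), g317 KO (0.0753) or g320 KO (0.0762). In a fit of the 10 KO arrays alone limma called Cyp2s1 (adjusted p = 0.000601) but not Cyp1b1 (0.0756), Cyp51 (0.135) or Cyp2c70 (0.155), and without the 8 hepatocyte-high arrays, which leaves 1 KO g array, it called 0 members.

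**Figure D4:**
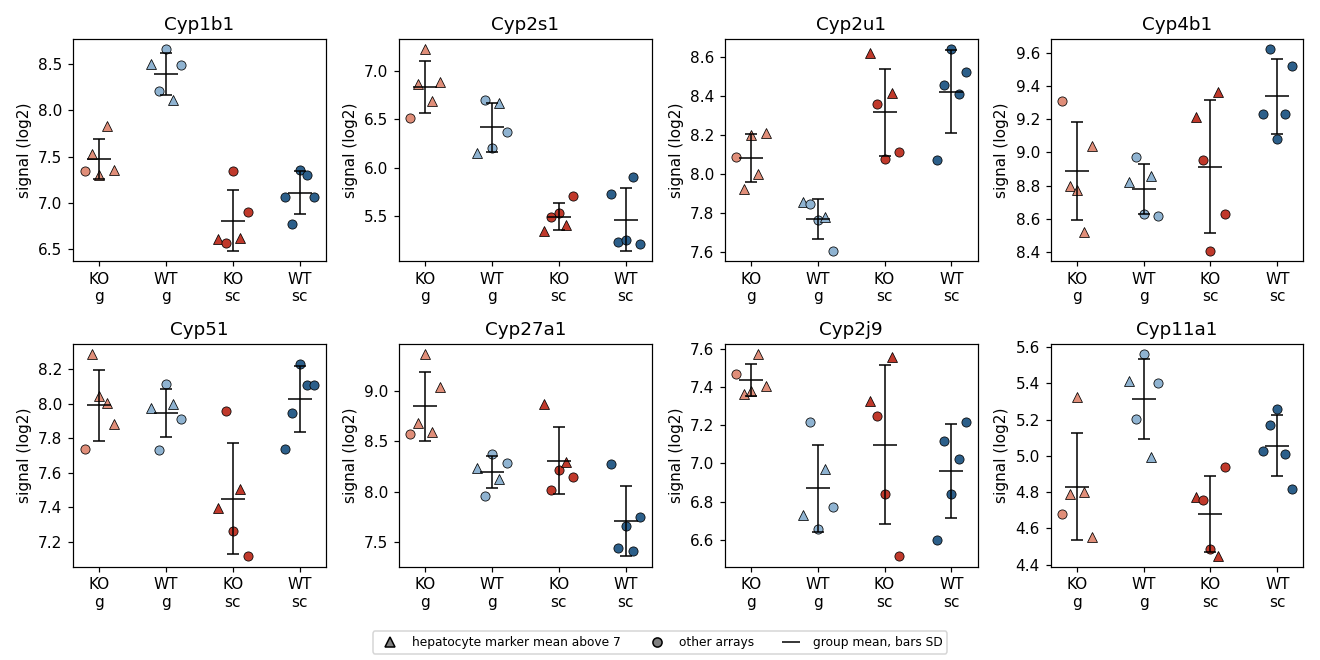
Log2 signals of 8 called members by genotype and depot, each point an array, bar and whiskers the group mean and SD (n = 5), triangles arrays with a hepatocyte marker mean above 7; each panel has its own scale, which does not start at 0. Cyp1b1 is lower in KO g than in WT g without overlap, and Cyp2s1 is higher in g than in sc in both genotypes.

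Members that varied little were the orphan P450 Cyp20a1, whose range over the 20 arrays was 0.53, Cyp4f13 (0.42) and Cyp2j6 (0.69), all above background on at least 16 arrays. Cyp20a1 averaged 8.40 ± 0.18 in KO g, 8.48 ± 0.06 in WT g, 8.34 ± 0.19 in KO sc and 8.38 ± 0.13 in WT sc (SD, n = 5 each). The KO difference of Cyp20a1 was -0.08 in g (limma adjusted p = 0.693) and -0.04 in sc (0.948). That of Cyp4f13 was 0.07 in g (0.691) and 0.15 in sc (0.596).

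The Alb-tracking members had the opposite shape, low on 12 arrays and high on 8. Cyp2d26 was 7.93, 8.86, 6.07 and 7.43 on g306, g317, g318 and g320 KO, 6.50 and 7.73 on g286 and g308 WT and 8.92 and 5.86 on sc300KO and sc318KO, against 3.56 to 4.43 on the other 12 arrays. The arrays of the 2 sets did not overlap. This held for 17 members, of which 15 were Alb-tracking. The share of all genes for which it held is not given. Alb is among the markers that parted the arrays, and it also served to choose the Alb-tracking members. Their lack of overlap thus follows in part from the choice and supports nothing. Cyp7a1, the rate-limiting enzyme of bile acid synthesis, was 4.72 to 8.03 on the 8 and 3.57 to 4.44 on the 12, and Cyp1a2 was 5.40 to 9.13 on the 8 and 3.89 to 4.56 on the 12. Cyp2a5, which hydroxylates coumarin, was 5.55 to 9.21, against 4.14 to 4.79, Cyp2j5 5.23 to 8.30, against 3.08 to 3.78, and Cyp2c23, an epoxygenase, 5.80 to 8.87, against 4.14 to 4.86. Within the 8 arrays the median r of the 20 members with Alb was 0.80, and within the other 12 it was 0.15; 0 of the 20 reached 0.8 there.

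The hepatocyte-high arrays did not carry the same P450 pattern. The hepatocyte mean was highest on g317 KO (10.1) and next on sc300KO (9.55). Of the 90 members 33 had their highest value on g317 KO and 17 on sc300KO. For the 20 Alb-tracking members these counts were 11 and 8, and 1, Cyp2c69, peaked on g320 KO. The shares of all genes that peaked on these arrays are not given, so the counts are descriptions. Some of the members that peaked on g317 KO, such as Cyp2c40, Cyp3a44 and Cyp2c66, were not above background on any array. All 4 Cyp2a genes (Cyp2a4, Cyp2a5, Cyp2a12, Cyp2a22) were highest on sc300KO, as were Cyp2b9, Cyp2b10, Cyp2b13, Cyp3a11, Cyp3a25, Cyp4a10 and Cyp4a14, while Cyp7a1, Cyp7b1, Cyp17a1, Cyp1a2, Cyp2f2, Cyp27a1, Cyp39a1, Cyp4f14 and Cyp4f15 were highest on g317 KO.

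Cyp2b9, of the Cyp2b subfamily, was 8.46 on sc300KO, 6.84 on g308 WT and 5.96 on g286 WT. On g317 KO it was 4.49, within the range of the 12 hepatocyte-low arrays (4.09 to 5.29). Cyp3a11 was 7.41 on sc300KO, 5.52 on g308 WT, 5.27 on g286 WT and 4.98 on g317 KO. The peroxisome proliferator-induced fatty acid hydroxylase Cyp4a14 was 7.41 on sc300KO, 6.50 on g308 WT and 4.77 on g317 KO, and its relative Cyp4a10 was 7.75, 6.55 and 5.81 on these arrays. For these 4 genes, of which Cyp3a11, Cyp4a10 and Cyp4a14 were chosen after their values were seen, both hepatocyte-high WT g arrays or one of them exceeded g317 KO, although their hepatocyte means were lower (7.40 on g286 WT and 8.53 on g308 WT). Cyp2c70 and Cyp2f2, by contrast, were 7.32 and 7.94 on g317 KO, and 5.34 and 6.76 on sc300KO. The title number 300 had a high hepatocyte mean in sc (9.55 on sc300KO) and a low one in g (5.50 on g300 KO).

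**Figure D5:**
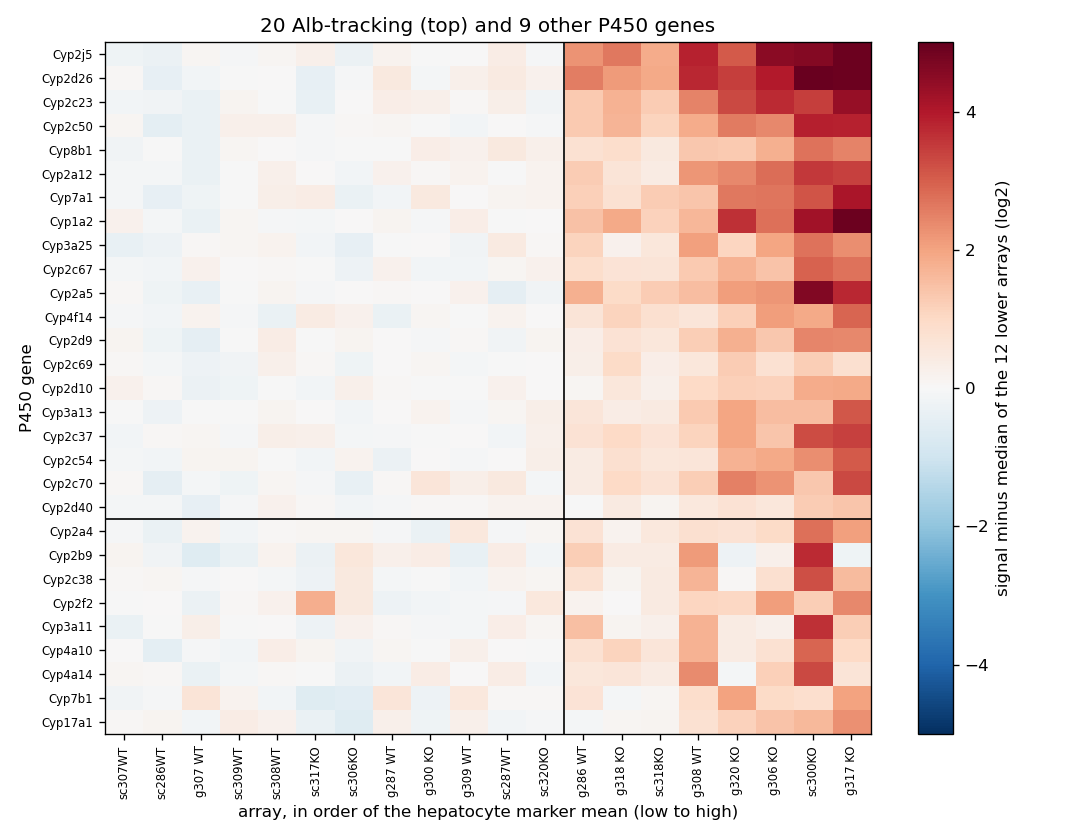
Signal of 20 Alb-tracking (above the line) and 9 other P450 genes on the 20 arrays, as the difference from the gene's median over the 12 hepatocyte-low arrays (log2, colour), with arrays in rising order of the hepatocyte marker mean and a vertical line between the 12 low and the 8 high ones. The Alb-tracking genes, chosen by their correlation with Alb on these arrays, are mostly higher on the 8 arrays at the right. Cyp2b9, Cyp3a11 and Cyp4a14 are higher on sc300KO and g308 WT than on g317 KO.

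Genes that work with P450 enzymes or control them were described from a list of 31, of which 28 were measured; P450 reductase (Por) and ferredoxin reductase (Fdxr) are not analysed here. In KO g against WT g 4 of 28 rose and 1 fell (17.9%, beside 11.3% of all genes), with a median of 0.13. Cyb5a, cytochrome b5, which passes electrons to microsomal P450s, was 10.83 ± 0.07 in KO g, against 10.20 ± 0.10 in WT g (SD, n = 5 each), a rise of 0.63 without overlap (SE 0.08; limma adjusted p = 0.000104). Fdx1, the ferredoxin that feeds the mitochondrial P450s such as Cyp27a1 and Cyp11a1, rose by 0.59 (SE 0.13; adjusted p = 0.00533), the nuclear receptor partner Rxra by 0.51 (adjusted p = 0.00828) and the heme-binding Pgrmc2 by 0.27 (adjusted p = 0.0249). The Pgrmc2 call was missed without g317 KO (adjusted p = 0.0645), g320 KO (0.0753), g286 WT (0.054), g307 WT (0.0643) or g309 WT (0.0592). Tbxas1, thromboxane synthase, a P450 by structure whose symbol lies outside the rule and which is abundant in macrophages, fell by 1.21 (SE 0.20; adjusted p = 0.000594). Ahr, the receptor that induces Cyp1a1, Cyp1a2 and Cyp1b1, differed by -0.27 (adjusted p = 0.203).

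In KO sc against WT sc 1 of the 28 rose (3.57%, beside 0.677% of all genes), Cyb5a, with 10.81 ± 0.04 in KO sc and 10.43 ± 0.19 in WT sc (SD, n = 5 each; 0.38, SE 0.08; limma adjusted p = 0.0366), a call missed in 8 of the 20 fits that left out 1 array (without sc300KO, sc317KO, sc318KO, sc320KO, sc286WT, sc287WT, sc308WT or sc309WT; adjusted p up to 0.0946). Fdx1 was 0.42 higher there and not called (adjusted p = 0.162), and Ahr differed by -0.18 (adjusted p = 0.688). On WT arrays the depots differed in 8 of the 28 (28.6%, beside 17.8% of all genes). Among them were Tbxas1 (1.96 higher in g, limma adjusted p = 1.63e-06) and the epoxide hydrolases Ephx1 (0.76 higher, adjusted p = 0.0012) and Ephx2 (-0.64, adjusted p = 0.0128). Further ones were the prostacyclin synthase Ptgis, also a P450 by structure (0.59 higher, adjusted p = 0.00394), the oxidative stress factor Nfe2l2 (0.48 higher, adjusted p = 0.00118) and Pgrmc2 (-0.31, adjusted p = 0.00588). On KO arrays 3 of the 28 were higher in g (10.7%, beside 4.13% of all genes). They were Tbxas1, with 8.59 ± 0.42 in KO g and 7.09 ± 0.44 in KO sc (SD, n = 5 each; limma adjusted p = 0.000133), Ptgis (0.89, adjusted p = 0.000463) and Ephx1 (0.66, adjusted p = 0.0135). With the macrophage covariate limma called 0 of the list in any comparison. In fits of the 2 groups compared alone, Pgrmc2 in KO g (adjusted p = 0.0754), Cyb5a in KO sc (0.132) and Ephx1 between the KO depots (0.111) were not called.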

How the data were processed

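Per the labels' protocols, total RNA was extracted with Qiagen reagents and labelled with a GeneChip WT PLUS kit. Per the submitters' processing notes the authors used RMA and limma, and the values they deposited were taken as log2 signals, 1 per probe and array; no version of either tool is named there. Of 28846 probes 6640 controls were left out (5222 negative ones set the background), 2634 had no symbol here, and the probe with the highest mean was kept for each of 55 genes with several, leaving 19505 genes. All 90 members matched RefSeq by Entrez identifier. Another 16 symbols that begin with Cyp did not match the rule.

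A mean for each of the 4 groups was fitted in R 4.3.3 with limma 3.58.1 (16 residual degrees of freedom) for 5 comparisons. The p-values are two-sided and Benjamini-Hochberg adjusted over all genes; called, rose and fell mean an adjusted p under 0.05; SE is the moderated SE. The fit was tested on simulated data. Precision is limited by the number of arrays. Members, lists, marker cutoffs and alternatives were chosen with earlier results of these data known. Named were Cyp2e1, called members, the Alb-independent members of highest probe mean by role (a choice of names only), the Alb-tracking members of highest r or range and those next to the limits of r; Cyp2f2, Cyp3a11, Cyp4a10, Cyp4a14 and members named beside counts were added after their values were seen. Title numbers occur in both depots, but the labels do not call them mice.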

Additional observations from a re-analysis of the deposited data

Results flagged for a closer look

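Of 128 sets of 5 arrays (32 named members in 4 groups), 9 had an array far from the other 4 by Dixon's test at the 95% level, and chance flags about 1 in 20. Members were named in part for a large range, a high r with Alb or values already seen. The number of flags therefore cannot be set against that rate. On sc300KO, beside the other KO sc arrays, 7 members stood apart: Cyp2b9 at 8.46 (the others 4.42 to 5.29), Cyp2d40 at 8.02, Cyp2a12 at 7.98, Cyp4a10 at 7.75, Cyp4a14 at 7.41, Cyp3a11 at 7.41 and Cyp8b1 at 6.68. These 7 share 1 array, whose hepatocyte marker mean was 9.55, and are not independent. Cyp4a32 stood at 4.74 on g308 WT, an array with a hepatocyte mean of 8.53, and Cyp2a12 at 4.71 on sc308WT. The cause was not tested.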

How the results depend on the processing

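With the title number as a replicate block the counts of called members were 1 for KO sc, 7 for KO g (8 without the block; Cyp4f14 missed it), 0 for the difference between depots and 4 for g against sc in WT and in KO, and no other call of a P450 gene changed. Arrays of the same number correlated with r between -0.461 and 0.142 in their residuals (median 0.0111), and 3 of 10 numbers were their own best match. For KO sc (1 called) 2 members were called with the dim-probe filter, with trend and robust eBayes and with array weights, and 1 to 4 without single arrays (4 without sc286WT, 2 without sc306KO). For KO g (8) the count was 5 with the hepatocyte covariate, 0 without the hepatocyte-high arrays and 0 with the macrophage covariate, and 2 to 15 without single arrays (15 without g300 KO, 13 without sc300KO, 5 without g287 WT, 4 without g286 WT, g309 WT or g317 KO, 3 without g307 WT, 2 without g320 KO). For g against sc in WT (4) it was 7 in a fit of these 2 groups alone, with array weights and without the lymphocyte-high arrays (an alternative chosen after seeing the data), 0 with the macrophage covariate and 3 to 7 without single arrays (7 without sc286WT). For g against sc in KO (4) it was 1 in a fit of these groups alone, 2 with the dim-probe filter and with array weights, 0 without the hepatocyte-high arrays, 1 with the macrophage covariate and 2 to 6 without single arrays (2 without sc317KO, sc320KO, g306 KO, g317 KO or g318 KO). The difference between depots stayed at 0. The share of all genes called in each alternative fit is not given, so these counts describe only how the calls depend on the settings. Of the partner genes, whose alternatives were added after seeing the data, 17 calls became 11 without the hepatocyte-high arrays, 0 with the macrophage covariate and 15 to 20 without single arrays. By Spearman correlation 8 members were at 0.8 or more with Alb in place of 20, and within the 12 hepatocyte-low arrays 1. Cyp2e1 in KO g was 2.47 without the hepatocyte-high arrays and 0.99 with the macrophage covariate (not called), and 2.39 to 2.92 without single arrays; in KO sc it was 2.25 to 2.59. Its depot difference, never called, turned sign: -0.82 for the difference of KO effects with the macrophage covariate (-0.0559 to 0.47 without single arrays, below 0 without g307 WT, g309 WT or g320 KO), -0.18 and -0.32 in WT and -0.0899 and -0.27 in KO with the hepatocyte covariate and without the hepatocyte-high arrays, and -0.19 to 0.34 in WT (below 0 without sc309WT or g308 WT) and 0.08 to 0.46 in KO without single arrays. With the macrophage covariate Cyp2d34 in KO g (-0.00085), Alas1 (0.0616) and Cyp4b1 (0.28) in WT and Cyp1b1 in KO (-0.11) turned sign. Causes were not tested. Among the P450 genes the mean of probes and median centring changed no call, and quantile normalization added Cyp2j6 in KO g. Dim probes limit what the array shows: 55 of 90 members never exceeded the 95th percentile of the negative controls.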
